A study of Caenorhabditis elegans with 2 samples.

Results

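The cytosolic ribosomal protein genes of Caenorhabditis elegans were examined in a map of UNC-55 binding. They were taken by name, as the protein-coding genes called rpl-, rps- or rla- followed by digits in the Ensembl annotation of WBcel235, and the rule found 81 of the 19973 nuclear protein-coding genes. By name alone, 50 were counted as large subunit genes, including the 3 rla- genes of the stalk, and 31 as small subunit genes. Nearly every protein of the cytosolic ribosome is encoded by a single such gene, and the genes are scattered over all 6 chromosomes. UNC-55 belongs to the COUP-TF nuclear receptors and is best known for its role in the VD motor neurons. Receptors of this family bind the half-site AGGTCA. Ribosomal protein genes are transcribed at high rates in growing cells, their products are needed in equal amounts, and in nematodes many of their transcripts are trans-spliced to a leader close to the start codon.

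Chromatin immunoprecipitation with sequencing was done in whole late embryos of strain NC1639, of mixed sex and with the age in hours given as unknown. The strain carries the integrated construct wdIs49, in which the ttr-39 promoter drives UNC-55a fused to GFP, with dpy-20+ as the marker. The tagged protein is made where and when this promoter is active. The antibody is named only as unc-55, and a note gives the tag as GFP with FLAG, so whether endogenous UNC-55 was also recovered is not known here. The 2 biological replicates form 1 group with no comparison strain, and the control library was not analysed here.

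The deposited lists differed between the replicates before any gene was considered. Replicate 1's list held 3577 regions, while replicate 2's list and the list from pooled reads held 30000 each. The set kept by the irreproducible discovery rate (IDR), which ranks regions by how well they repeat between lists, held 2511 peaks. These had the highest signal values in the pooled list, and a peak of the set need not have a region in replicate 1's list. At ribosomal protein genes, 12 of the 51 IDR peaks had one. The pooled list is labelled as peaks and background used as input for IDR, so a pooled summit outside the IDR set may be background. A summit is the position of highest signal within a region. A gene is called bound here when an IDR summit lay between 1000 bp upstream and 200 bp downstream of one of its transcript starts, and the signal value is the authors' own peak height, used only to order peaks within a list. Read depth is unknown, and intervals are 95% Wilson intervals that cover counting error over genes or peaks only.

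The sequences below lie at the strongest peaks of ribosomal protein genes that touched no annotated exon, chosen among the chromosomes that may be shown, and at the strongest pooled summits of unbound members. They run 100 bp to either side of the summit, on the strand of the gene, in ce11 (WBcel235). The first 6 are bound members: rpl-3 at III:3867452-3867652 on the plus strand, rpl-15 at IV:654837-655037 on the minus strand, rpl-35 at III:7854603-7854803 on the plus strand, rps-28 at IV:1659119-1659319 on the plus strand, rpl-20 at IV:4749952-4750152 on the minus strand and rpl-11.2 at X:2242888-2243088 on the minus strand. The other two, rps-22 at III:1950280-1950480 on the plus strand and rpl-28 at V:12728337-12728537 on the minus strand, had a summit in the pooled list but none in the IDR set, and were added after their values were seen. Capitals mark the 6-mers ACCGTA or TACGGT and CCTAAA or TTTAGG, whose frequencies are given further on. They are shown so that the spacing of both words and their place relative to the summit, at the middle of each window, can be read.
rpl-3: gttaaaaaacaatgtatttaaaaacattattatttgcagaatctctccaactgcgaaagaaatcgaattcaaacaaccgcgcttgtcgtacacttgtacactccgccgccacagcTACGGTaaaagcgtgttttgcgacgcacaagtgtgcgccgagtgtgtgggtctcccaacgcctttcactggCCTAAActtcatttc
rpl-15: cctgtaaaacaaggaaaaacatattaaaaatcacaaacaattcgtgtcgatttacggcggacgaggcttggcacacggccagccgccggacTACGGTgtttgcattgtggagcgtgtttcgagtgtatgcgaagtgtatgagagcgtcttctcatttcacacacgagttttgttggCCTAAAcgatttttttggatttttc
rpl-35: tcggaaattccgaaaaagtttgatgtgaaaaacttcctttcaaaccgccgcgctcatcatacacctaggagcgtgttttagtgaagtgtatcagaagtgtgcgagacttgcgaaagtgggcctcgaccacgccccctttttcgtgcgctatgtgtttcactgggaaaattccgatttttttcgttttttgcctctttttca
rps-28: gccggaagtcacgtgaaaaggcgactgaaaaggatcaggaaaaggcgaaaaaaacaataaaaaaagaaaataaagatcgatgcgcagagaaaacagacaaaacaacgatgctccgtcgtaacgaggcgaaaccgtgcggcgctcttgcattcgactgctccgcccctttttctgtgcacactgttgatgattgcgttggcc
rpl-20: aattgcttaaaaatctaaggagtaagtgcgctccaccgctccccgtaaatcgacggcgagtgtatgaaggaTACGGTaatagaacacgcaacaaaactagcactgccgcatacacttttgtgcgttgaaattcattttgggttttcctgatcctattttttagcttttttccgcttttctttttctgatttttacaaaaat
rpl-11.2: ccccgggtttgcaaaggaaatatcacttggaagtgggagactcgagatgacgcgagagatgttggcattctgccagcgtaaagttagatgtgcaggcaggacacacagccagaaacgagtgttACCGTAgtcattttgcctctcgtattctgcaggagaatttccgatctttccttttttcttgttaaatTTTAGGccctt
rps-22: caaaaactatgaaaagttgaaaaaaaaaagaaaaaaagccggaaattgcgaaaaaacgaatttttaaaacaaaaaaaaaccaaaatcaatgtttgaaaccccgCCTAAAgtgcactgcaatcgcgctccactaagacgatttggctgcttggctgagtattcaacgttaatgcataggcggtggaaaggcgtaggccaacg
rpl-28: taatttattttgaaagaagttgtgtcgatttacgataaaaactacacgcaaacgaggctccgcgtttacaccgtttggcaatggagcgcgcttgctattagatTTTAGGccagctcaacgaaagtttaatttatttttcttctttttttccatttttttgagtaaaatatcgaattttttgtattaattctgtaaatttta

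In rpl-3, rpl-15 and rpl-11.2 both words were present, the ACCGTA word nearer the summit and the CCTAAA word nearer the gene. The rpl-20 window held only the ACCGTA word, and the rpl-35 and rps-28 windows held neither. The rps-22 and rpl-28 windows held only the CCTAAA word. The GC content of the 6 bound windows ran from 38.8% in rpl-20 to 47.8% in rps-28.

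UNC-55 peaks lay upstream of most ribosomal protein genes. An IDR summit fell in the window of 53 of the 81 members (65.4%, interval 54.6 to 74.9%), against 7.34% of all protein-coding genes. The small subunit genes were bound in 23 of 31 cases (74.2%, interval 56.8 to 86.3%) and the large subunit genes in 30 of 50 (60%, interval 46.2 to 72.4%), and these intervals overlap. A summit of the longer pooled list was present for 74 of 81 members (91.4%, interval 83.2 to 95.8%), where 43.7% of all genes had one. Replicate 2's list gave 74 members as well, against 43.6% of all genes. In replicate 1's list alone 17 members had a summit (21%, interval 13.5 to 31.1%), against 7.04% of all genes. Cut to its own strongest 2511 regions, replicate 1 gave 12 members, against 5.08% of all genes, so the count depended on the replicate used. With replicate 2's strongest 2511 regions the count was 53, against 7.37% of all genes. Where a summit was given only to the protein-coding gene whose start was nearest, 31 members (38.3%) were bound, against 5.83% of all genes.

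**Figure D1:**
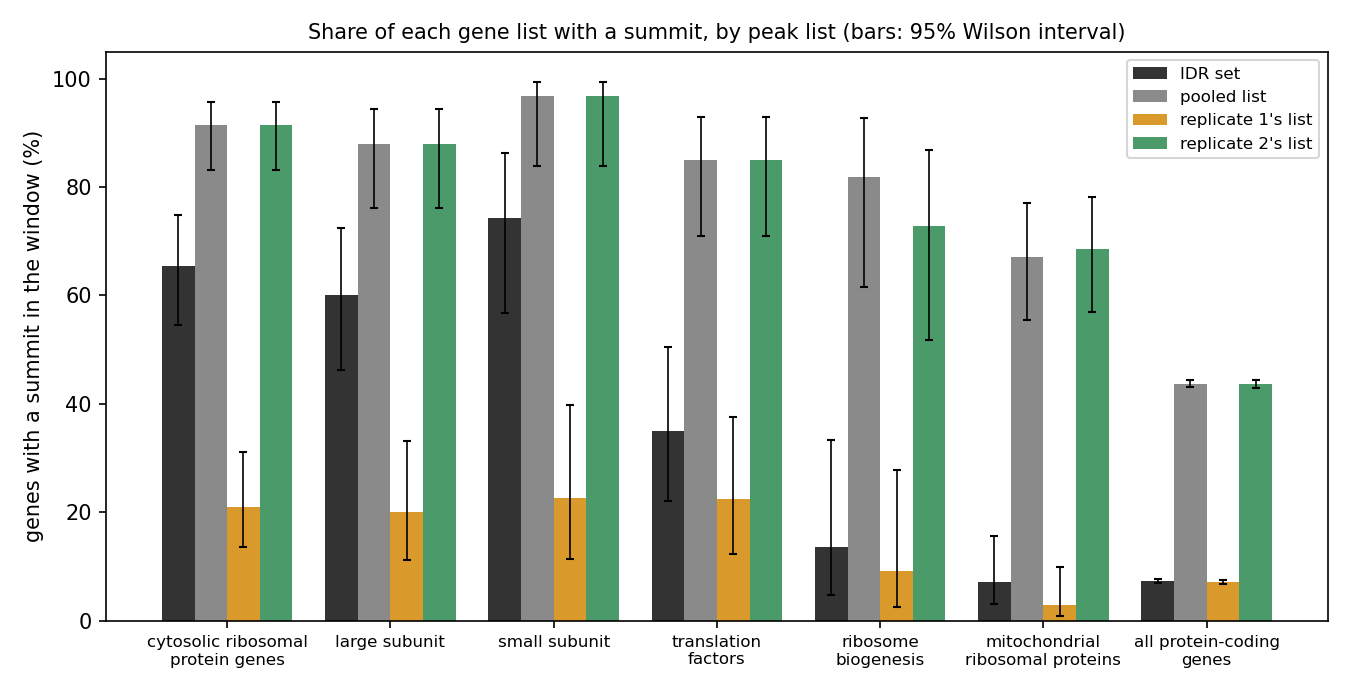
Share of each gene list with a summit in the promoter window (percent of genes, vertical axis), for the IDR set, the pooled list and the lists of replicates 1 and 2, with 95% Wilson intervals as error bars. Cytosolic ribosomal protein genes reached 65.4% in the IDR set and 21% in replicate 1's list, with all protein-coding genes at 7.34% and 7.04%.

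The 53 bound members were covered by 51 distinct peaks, and none of the 53 had more than 1 IDR summit in its window. Their signal values ran from 23.9 to 66.5 with a median of 36.5, while the other 1174 IDR peaks in promoter windows ran from 23.8 to 226.9 with a median of 33.9. Of the 51 peaks, 6 were among the strongest 500 of the IDR set and 24 among the strongest 1000. The median rank was 1092 for the peaks of ribosomal protein genes, against 1311.5 for the other promoter peaks. These peaks thus lay in the middle of the set in strength. Bound large subunit genes had a median signal of 40.0 and bound small subunit genes 33.7.

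The strongest peak of the family belonged to rpl-25.2, a protein at the rim of the polypeptide exit tunnel, with a signal of 66.5 at rank 229 of the IDR set and rank 248 of replicate 2's list. It was followed by rpl-3, a core protein near the peptidyl transferase centre, at 62.1, and by rps-19, a small subunit protein needed in yeast and human cells to mature the small subunit rRNA, at 61.0. None of these 3 peaks was overlapped by a region of replicate 1. The peak of rpl-15 had a signal of 55.0, at rank 392 of the IDR set, 933 of replicate 1's list and 444 of replicate 2's. The peak of rpl-35, another exit tunnel protein, had a signal of 53.7, at rank 419 of the IDR set, 3384 of replicate 1's list and 418 of replicate 2's. The small subunit genes rps-20, rps-1 and rps-28 followed with signals of 51.1, 49.2 and 49.2. The stalk base gene rpl-12 had 48.6, and rpl-41.2, for the shortest of the ribosomal proteins, had 46.8.

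**Figure D2:**
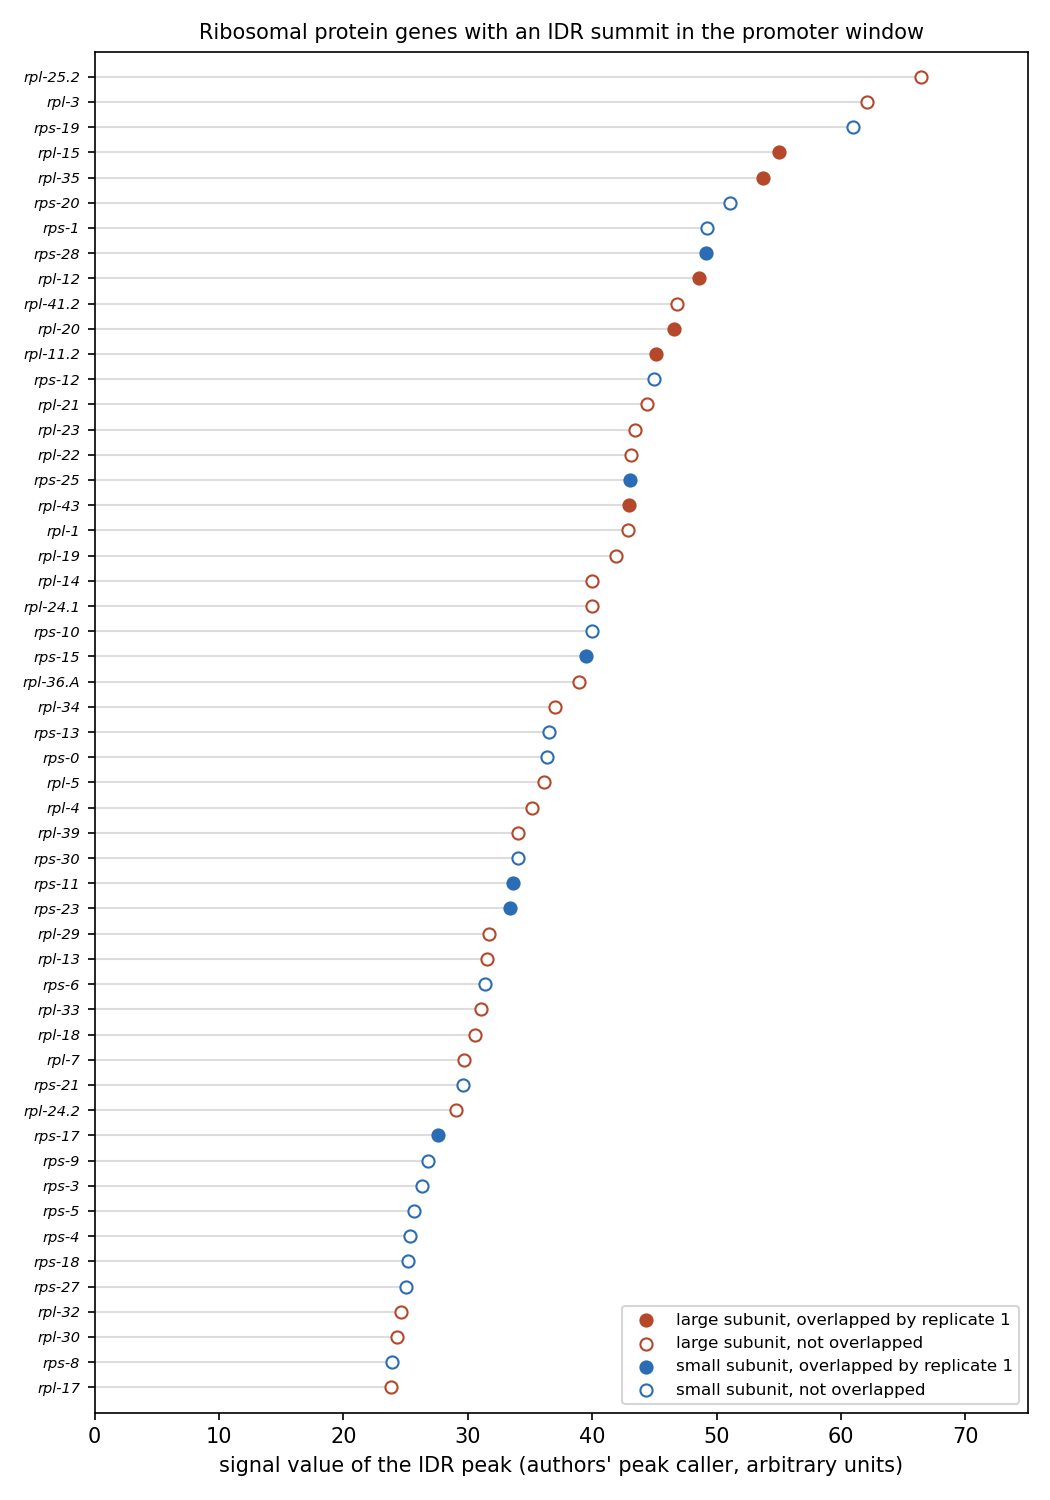
Signal value of the IDR peak (horizontal axis, arbitrary units of the authors' peak caller) for each of the 53 bound ribosomal protein genes, ordered by signal and coloured by subunit; filled points were overlapped by a region of replicate 1's list. The filled points, 12 in number, lean to the stronger peaks (median rank 697.5, against 1206 for the open points) but miss the 3 strongest genes.

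Replicate 1's list overlapped 12 of the 51 peaks (23.5%, interval 14 to 36.8%), against 355 of the 1174 other promoter peaks (30.2%, interval 27.7 to 32.9%), and these intervals overlap. The genes concerned were 12 of the 81 members, against 2.15% of all protein-coding genes with such a peak. The 6 large subunit genes were rpl-12, rpl-15, rpl-11.2, rpl-43, rpl-35 and rpl-20. The 6 small subunit genes were rps-25, rps-11, rps-15, rps-23, which lines the decoding centre, rps-17 and rps-28. Within replicate 1's list they ranked from 182, for rps-25, to 3446, for rpl-20. The rps-25 peak ranked 742 in the IDR set and 1012 in replicate 2's list, and the rps-11 peak ranked 464 in replicate 1's list and 1331 in the IDR set. Over the 12 genes the summit of replicate 1 lay a median of 28 bp from the IDR summit (range 1 to 188 bp). Replicate 2's list overlapped all 51 peaks. The 12 peaks overlapped by replicate 1 had a median IDR rank of 697.5 and the other 39 a median of 1206.

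Grouped by place in the ribosome, the exit tunnel proteins were bound at 6 of 9 genes, namely rpl-4, rpl-17, rpl-19, rpl-25.2, rpl-35 and rpl-39, while rpl-25.1, rpl-26 and rpl-31 had no IDR summit. Of the particle that carries 5S rRNA, rpl-5 (signal 36.1, rank 1118) and rpl-11.2 were bound and rpl-11.1 was not. The stalk recruits the translation factors that hydrolyse GTP. At the stalk and its base, rpl-12 was bound and the 3 rla- genes were not. The pooled list held a region for rla-0 at rank 2930, 260 bp upstream of the start, and for rla-2 at rank 4551, 455 bp upstream. In replicate 1's list rla-2 ranked 474, with the summit at -549 bp from the start (negative is upstream). In replicate 2's list it ranked 6490, with the summit at -259 bp, so these may be different regions. The window of rla-1 held no summit in the IDR set or in the pooled list. A further stalk gene lies outside the naming rule and was looked up after values were seen: C37A2.7, given by RefSeq as rplp-2.1, large ribosomal subunit protein P2, had an IDR summit 397 bp upstream of its start at rank 2271.

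Where a number is shared by a pair of paralogues, the copies differed in 3 of 4 pairs. The rpl-11.2 window held the summit of rank 653, while rpl-11.1 had a pooled region of rank 7699, 73 bp upstream, and rank 2124 in replicate 1's list. The rpl-25.2 window held the summit of rank 229 and that of rpl-25.1 no summit even in the pooled list. The rpl-41.2 window held the summit of rank 595 and that of rpl-41.1, its neighbour upstream, a pooled region of rank 6416. Both rpl-24.1 (rank 902) and rpl-24.2 (rank 1762) were bound. Reads that match more than 1 copy could have been placed or dropped by the alignment in a way not given in the sources used here. The pairs rpl-7 and rpl-7A, and rpl-36 and rpl-36.A, share a number but not a protein family. Of these, rpl-7 (rank 1691) and rpl-36.A (rank 961) were bound, and rpl-7A (pooled rank 6849) and rpl-36 (pooled rank 3078) were not.

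The summits stood at a regular distance from the genes. For the 53 bound members the strongest summit lay at a median of -305 bp from the nearest transcript start, where a negative value is upstream. The middle of the distribution ran from -364 to -264 bp (quartiles), and the SD was 142 bp. The other 1413 bound protein-coding genes had a median of -245 bp, quartiles of -503 and -118 bp and an SD of 293 bp. Between 200 and 400 bp upstream, a band chosen after the values were seen, lay 40 of 53 members (75.5%, interval 62.4 to 85.1%), against 384 of 1413 other bound genes (27.2%, interval 24.9 to 29.6%). The median was -320.5 bp in large subunit genes and -302 bp in small subunit genes. The annotated starts themselves lay close to the coding sequence, at a median of 8 bp before the start codon over the 81 members. The spliced-leader acceptor form TTTCAG occurred in the 20 bp before the start of 41 of 81 members (50.6%), against 14.6% of other protein-coding genes.

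**Figure D3:**
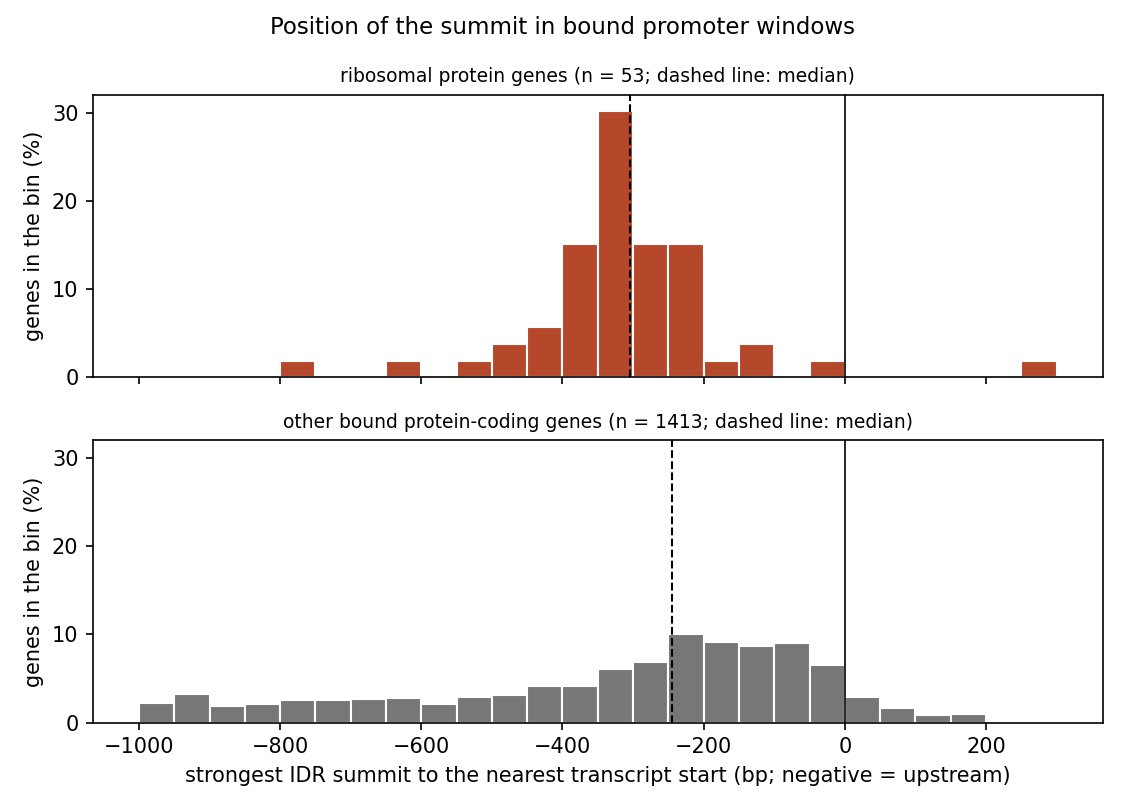
Distance from the strongest IDR summit to the nearest transcript start (horizontal axis, bp, negative upstream) as percent of genes per 50 bp bin, for the 53 bound ribosomal protein genes (upper) and the 1413 other bound genes (lower), with dashed medians at -305 and -245 bp. The ribosomal protein genes form 1 peak between 200 and 400 bp upstream, and the other genes spread over the whole window.

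A like distance was seen in the other lists, which share reads with the IDR set. The 21 unbound members with a pooled summit had it at a median of -288 bp, with 12 of 21 in the same band (57.1%, interval 36.5 to 75.5%), against 1637 of 7240 other unbound genes with a pooled summit (22.6%, interval 21.7 to 23.6%). In replicate 1's list the 17 members with a summit had a median of -303 bp and quartiles of -377 and -215 bp, and other genes -295 bp and quartiles of -624.5 and -92 bp. In replicate 2's list the 74 members had a median of -302 bp, and other genes -257 bp. Of the 13 bound members outside the band, 8 had the summit farther upstream, from rps-15 at 403 bp through rpl-33, rpl-35, rps-28, rpl-34, rps-18 and rps-27 to rpl-43 at 763 bp. In 4 it lay nearer, at 35 bp for rpl-12, 134 bp for rpl-25.2, 139 bp for rpl-24.2 and 154 bp for rpl-18. The rpl-19 summit was the only one of the 53 downstream of its nearest start, at 288 bp past the first start, but it lay 324 bp upstream of a second annotated start, from which the transcript reaches the same coding sequence.

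Many of these peaks lay between a ribosomal protein gene and a neighbour read in the other direction. The summit of 36 of the 53 bound members also fell in the window of another protein-coding gene, and 17 had the window to themselves. Counted by peak, 34 of 51 lay in windows of 2 or more coding genes (66.7%, interval 53 to 78%), against 252 of 1174 other promoter peaks (21.5%, interval 19.2 to 23.9%). Of the 36 distinct pairs of a member and another gene, 32 were on opposite strands. In 30 of these the other gene was not a member, and the summit lay at a median of -304.5 bp from the member and -224 bp from the other gene. For 22 bound members the start of another coding gene was nearer to the summit than their own. The peak cannot be assigned to such a member by position alone. Among them, rps-10 and rps-30 had another ribosomal protein gene as the nearer one, rpl-24.1 and rpl-39. Partners included hsr-9 with rps-19, ekl-4 with rps-20, and ifet-1, which encodes a translational repressor, with rps-1. Others were lin-54, for a DNA-binding subunit of the DREAM complex, with rpl-12, and pab-1, the poly(A)-binding protein, with rpl-30. Partners of rpl-25.2 and rpl-15 were C34B7.1 and K11H12.8.

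A single summit served a pair of members in 2 cases. The peak of rank 902, with a signal of 40.0, lay in the windows of rpl-24.1 and rps-10, 375 bp upstream of rps-10 and nearer to rpl-24.1. The peak of rank 1290 lay 231 bp upstream of rpl-39 and 268 bp upstream of rps-30, with a signal of 34, and also in the window of C26F1.3. The divergent pair rpl-36 and rps-14 shared a region as well, at rank 3078 of the pooled list. Among non-coding genes, 7 of the 51 peaks also fell in the window of a snoRNA gene (13.7%, interval 6.81 to 25.7%), against 2.73% of other promoter peaks (interval 1.94 to 3.82%). Each of the 7 belonged to a member with snoRNA genes in its own introns, namely rpl-4, rpl-7, rpl-15, rpl-24.1, rps-12, rps-13 and rps-23. None of the 51 peaks fell in the window of a tRNA or snRNA gene, against 1.02% and 0.511% of other promoter peaks. Members that hold snoRNA genes in their introns were bound in 8 of 13 cases and members without in 45 of 68.

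The bound share was lowest among members with a close same-strand gene upstream, although the intervals of the placements overlap in part. The divergent class took any next upstream gene on the opposite strand, at any gap or overlapping. In it 37 of 55 members were bound (67.3%, interval 54.1 to 78.2%), against 9.41% of other genes so placed. Its gaps reached 14392 bp, at rps-28, and rpl-24.2 and rpl-37 overlapped the neighbour. With a same-strand neighbour more than 500 bp away, 14 of 17 were bound (82.4%, interval 59.0 to 93.8%), against 5.80% of other genes so placed. With a same-strand neighbour ending within 500 bp, 2 of 9 were bound (22.2%, interval 6.32 to 54.7%), against 4.01% of other genes so placed. The rule for this class set no lower limit on the gap, so overlapping same-strand genes count as well. The annotation used here does not mark operons, so whether these 9 genes are transcribed with their neighbour was not tested.

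In 5 of the 9 the gap was under 120 bp, and none of those 5 members had a summit of its own even in the pooled list, while 4 of the 5 genes upstream were bound. The gene before rla-1 is Y37E3.8, given by RefSeq as rpl-27A, large ribosomal subunit protein uL15, and its IDR summit of rank 1693 lay 276 bp upstream of it, also in the window of phb-1. The gene before rpl-16 is lias-1, for lipoyl synthase, with a summit of rank 1178 at 300 bp upstream. The gene before rpl-25.1 is glit-1, with a summit of rank 372 and signal 56.5 at 191 bp upstream, also in the window of dnj-14. The gene before rps-16 is fib-1, for the rRNA methyltransferase fibrillarin, with a summit of rank 426 and signal 53.4 at 61 bp upstream. The gene before rpl-27, C53H9.2, had only a pooled summit, of rank 5831. In the other 4 of the 9, rpl-19, rps-17, rps-2 and rps-7, the gap was 356 to 480 bp. There the member had the pooled summit in 4 of 4 and the IDR summit in 2 of 4, and none of the upstream genes had a summit in either list.

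The 28 unbound members divided into 21 with a summit in the pooled list and 7 without. The 21 ranked from 2553 to 7699 in that list, with a median of 4371, where the IDR set takes the first 2511. The strongest were rps-22 (rank 2553), rpl-28 (2801), rla-0 (2930), and rpl-36 with rps-14 (3078). They were followed by rpl-9 (3747), rpl-6 (3883), rpl-31 (3989), rpl-2 (4010), rps-7 (4049), rps-26 (4371), rla-2 (4551), rpl-10 (4650) and rpl-38 (5443). The weakest were rpl-26 (6244), rpl-41.1 (6416), rps-2 (6436), rps-29 (6535), rpl-7A (6849), rps-24 (7494) and rpl-11.1 (7699). For all genes with a pooled summit the median rank was 8959. Replicate 1's list held a summit for 5 of the 28, at rank 474 for rla-2, 1446 for rpl-6, 1843 for rps-7, 2124 for rpl-11.1 and 3462 for rpl-31. In rpl-6 that summit lay 705 bp upstream and the pooled one 288 bp.

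The 7 without a pooled summit were rla-1, rpl-16, rpl-25.1, rpl-27 and rps-16, described above, with rpl-37 and rpl-42. The nearest IDR summit was 1308 bp upstream of rla-1, 1797 bp upstream of rpl-16, 3090 bp upstream of rpl-25.1 and 1743 bp upstream of rps-16. It was 714 bp downstream of the start of rpl-27, 3580 bp downstream of that of rpl-37 and 4828 bp downstream of that of rpl-42. In 9 of the 28 unbound members an IDR summit lay within 5000 bp of a start (32.1%, interval 17.9 to 50.7%), against 14.3% of other unbound genes. The rpl-37 gene overlaps pitp-1 on the other strand, and rpl-42 stands 3256 bp from unc-53. By chromosome, bound members numbered 18 of 25 on I, 7 of 10 on II, 10 of 18 on III, 14 of 18 on IV, 3 of 8 on V and 1 of 2 on X. Of all protein-coding genes, 10.2% were bound on I, 6.84% on II, 9.77% on III, 6.34% on IV, 4.51% on V and 8.97% on X.

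GAGAGA, a word known to be frequent in this peak set from earlier results, was less frequent at ribosomal protein genes than in other promoter peaks. Within 100 bp of the summit, on either strand, GAGAGA occurred in 12 of the 51 peaks (23.5%, interval 14 to 36.8%), against 50.8% of the 1174 other promoter peaks (interval 47.9 to 53.6%) and 14% of windows at all protein-coding starts. ACGCAG occurred in 11 of 51 (21.6%, interval 12.5 to 34.6%), against 30.2% of other promoter peaks (interval 27.7 to 32.9%) and 4.89% of starts. The receptor half-site AGGTCA occurred in 1 of 51 (1.96%, interval 0.347 to 10.3%), against 6.56% of other promoter peaks (interval 5.28 to 8.12%) and 5.34% of starts. For ACGCAG and AGGTCA the intervals overlap. The longer form AAGGTCA, which contains the half-site, occurred in 0 of 51, which allows a share of up to 7.0% by the Wilson interval, against 1.79% of other promoter peaks. GGCGGG occurred in 5.88%, against 12.3%. TATAAA occurred in 15.7%, against 11.8% of other promoter peaks and 26.6% of starts, and its share depends on the width searched. The mean GC content was 42.0 ± 4.27% over the 51 peaks, 44.6 ± 6.57% over other promoter peaks and 36.4 ± 5.69% over starts (SD). A match describes letters in the window, and its absence says nothing of the protein.

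Another pair of words was frequent at these genes, the first 2 of 8 listed in the order given next. They were found after the data were seen, by ordering the 35 of 2080 6-mers (each with its reverse complement) that occurred in at least 40% of the 51 peaks by the ratio of their share to that in other promoter peaks, so their shares in the 51 peaks are a description. CCTAAA or TTTAGG occurred in 24 of 51 peaks (47.1%), against 50 of 1174 other promoter peaks (4.26%) and 7.17% of starts. ACCGTA or TACGGT occurred in 27 of 51 (52.9%), against 75 of 1174 (6.39%) and 4.85% of starts. At least 1 of the words was in 37 of 51 peaks (72.5%, interval 59.1 to 82.9%), against 10.1% of other promoter peaks (interval 8.54 to 12%). Both were in 14 of 51, against 6 of 1174. TTTAGG can share its last letters with AGGTCA, which was present in 1 of the 51 peaks. By difference in percentage points, the 6-mer furthest below its share in other promoter peaks was AGAGAG, in 11.8% of the 51 peaks, against 44.5%.

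The same words were counted in members that had no part in choosing them. The 21 unbound members with a pooled summit have 20 distinct pooled regions, of which 11 held CCTAAA (55.0%, interval 34.2 to 74.2%), against 500 of 6275 regions of other unbound genes (7.97%, interval 7.32 to 8.66%). ACCGTA was in 5 of 20 (25%, interval 11 to 46.9%), against 364 of 6275 (5.80%, interval 5.25 to 6.41%). For either word the counts were 14 of 20 (70.0%, interval 48.1 to 85.5%) and 830 of 6275 (13.2%). The pair was not alone in this. GAGACC, number 4 of the 8 words listed and named after its values were seen, was in 23 of 51 member peaks (45.1%), against 13.4% of other promoter peaks. It was in 9 of the 20 pooled regions (45.0%, interval 25.8 to 65.8%), against 419 of 6275 (6.68%). These regions were not matched for strength. The median pooled rank was 4371 for the 21 unbound members, against 8959 for all genes with a pooled summit. Either word was also sought at a fixed place, in windows of the same width centred 300 bp upstream of the first start. This centre lies near the members' own median summit of -305 bp, where other bound genes had -245 bp. It is therefore not independent of the peaks. Either word was found in 34 of 53 bound members (64.2%), many of whose windows overlap those used in the choice. It was found in 9 of 28 unbound members (32.1%, interval 17.9 to 50.7%). Among other bound genes 16.2% had it (interval 14.4 to 18.2%), and among all other protein-coding genes 14.9%. The intervals of unbound members and other bound genes overlap. Alone, CCTAAA was in 6, ACCGTA in 4 and GAGACC in 13 of the 28 unbound members. Of all other protein-coding genes, 9.59%, 5.96% and 5.61% held them.

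In the bound members the words mostly kept an order. Where both were present, in 14 bound members, CCTAAA lay nearer the start than ACCGTA in 13, with a median of 53 bp between them (range 13 to 118 bp); the exception was rpl-18. Of the 2 unbound members with both words, rpl-10 had this order and rps-29 the reverse. Taking the copy nearest the summit, ACCGTA lay at a median of -285 bp from the start and 25 bp from the summit in the 28 bound members that had it. CCTAAA lay at a median of -221 bp from the start and 59 bp from the summit in the 25 that had it. CCTAAA was on the strand of the gene in 16 of those 25 bound members and in 10 of 11 unbound ones. These positions can be read in the printed windows of rpl-3, rpl-15 and rpl-11.2.

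**Figure D4:**
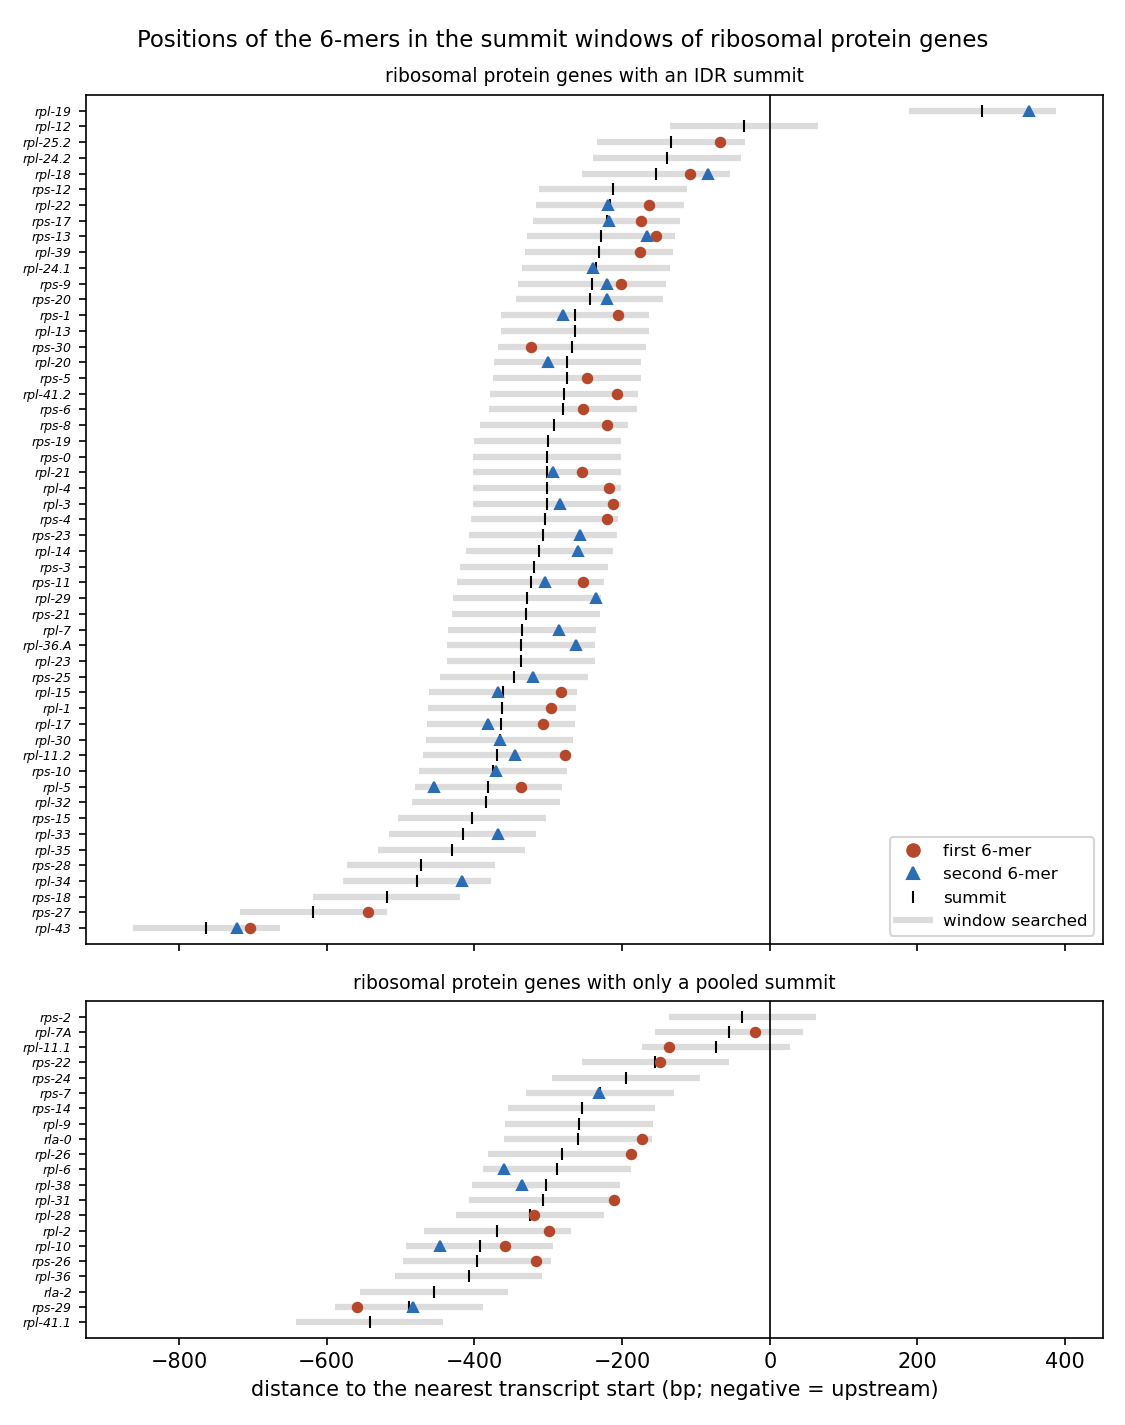
Positions of the CCTAAA word (first 6-mer, circles) and the ACCGTA word (second 6-mer, triangles) relative to the nearest transcript start (horizontal axis, bp, negative upstream) for the 53 bound members (upper) and the 21 unbound members with a pooled summit (lower), one gene a line. Ticks are summits and grey bars the windows searched, 100 bp to either side; in 13 of the 14 bound members with both words the circle lies nearer the start than the triangle.

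The 6 other promoter peaks with both words were looked up after they were counted. The peaks of ranks 1693, 1178 and 372 are those of Y37E3.8, lias-1 and glit-1, the genes directly before rla-1, rpl-16 and rpl-25.1. The peak of rank 2271 is that of the P2 gene C37A2.7, and lies in the window of pqn-20 too. The peak of rank 359 lies in the window of iff-2, which encodes the translation factor eIF5A, with F54C9.14. The last, of rank 1384, lies in the windows of C18D11.3 and maa-1. At fib-1, before rps-16, the window held ACCGTA but not CCTAAA, and at the pooled summit of C53H9.2, before rpl-27, it held CCTAAA but not ACCGTA.

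Set beside the 65.4% of cytosolic ribosomal protein genes, other genes of the translation apparatus had lower shares in the IDR set. Translation factor genes came closer to the members under other calls. Their share was 22.5% against 21% in replicate 1's list, and 85% against 91.4% in the pooled list. With the nearest start only it was 27.5% (interval 16.1 to 42.8%) against 38.3% (interval 28.4 to 49.2%), and these intervals overlap. Of translation factor genes 14 of 40 were bound (35%, interval 22.1 to 50.5%), and of 22 ribosome biogenesis genes found by name 3 were, namely fib-1, nol-58 and ncl-1 (13.6%, interval 4.75 to 33.3%). Mitochondrial ribosomal protein genes were bound in 5 of 70 cases (7.14%, interval 3.09 to 15.7%), close to the 7.34% of all genes, although 47 of the 70 had a pooled summit (67.1%, interval 55.5 to 77.0%). None of the 3 genes listed for ribosomal proteins outside the naming rule, ubl-1, ubq-2 and rack-1, had an IDR summit, whereas Y37E3.8 and C37A2.7, which are not on that list and were met after values were seen, had one. For ubl-1, ubq-2 and rack-1 the pooled summits ranked 3189, 4174 and 3020, and the CCTAAA word was present at 3 of these 3. ACCGTA was present at 5 of the 14 bound translation factor genes and CCTAAA at 2 of them. Either word occurred at 70.0% of the pooled regions of unbound cytosolic members (interval 48.1 to 85.5%), against 42.9% of the IDR summits of the 14 bound translation factor genes (interval 21.4 to 67.4%, which overlaps) and 17% (interval 8.89 to 30.1%) of the 47 pooled summits of mitochondrial ribosomal protein genes.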

How the data were processed

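ChIP-seq peak lists from 2 biological replicates, labelled as 1 group, were used in ce11 coordinates. They are narrowPeak lists for each replicate, for pooled reads and for the IDR set. Per the notes deposited with the lists, each list was called with a control and the IDR set was made from the pooled list and those of replicates 1 and 2. The signal per region, the −log10 q-value and the summit offset are the authors' deposited values, and neither reads nor counts were used, so depth is unknown. The q-values were not used. Which aligner and which peak caller were used, and in which versions, is not given in the sources here. The ce10 lists were not used, since the annotation is of WBcel235.

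Summits were placed against Ensembl release 115 transcript starts with Python 3.11.15 and numpy 2.4.6, in windows of 1000 bp upstream and 200 bp downstream. Peaks overlapped when they shared at least 1 bp. Words were searched on both strands within 100 bp of a summit in the RefSeq genome sequence. RefSeq supplied the sequences printed (WBcel235) and gene products. The placement was tested on simulated data. No statistical test was made, since there is 1 group and genes are not replicates. Genes named were the 10 strongest bound members, those overlapped by replicate 1, the rla- genes, paralogue pairs, members sharing a summit and all unbound members; others were chosen after their values were seen. Members, lists and words were chosen with earlier results of these data known, and the rule takes rpl-7A and rpl-36.A, whose numbers are followed by a letter. Alternatives were other windows, starts, overlaps and widths, the stronger part of the IDR set, and each replicate alone.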

Additional observations from a re-analysis of the deposited data

How the results depend on the processing

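The number of bound members was 53 of 81, against 7.34% of all protein-coding genes bound. With a window of 500 bp upstream to 100 bp downstream it was 50, against 5.45%. In 2000 bp upstream to 500 bp downstream it was 56, against 10.3%. The first start alone gave 52, against 6.62%, and any part of a peak in place of its summit 53, against 7.99%. The count was 31 when a summit counted only for the nearest start, against 5.83%. It was 30 with the stronger part of the IDR set, against 3.57%. Leaving out replicate 2 gave 12, against 5.08%, and leaving out replicate 1 gave 53, against 7.37%. For large subunit genes leaving out a replicate gave 6 to 30. For small subunit genes it gave 6 to 23, against 10 with the nearest start and 10 with the stronger peaks. Members whose summit was shared numbered 36, and 0 with the nearest start by construction, 23 with the stronger peaks and 6 to 38 leaving out a replicate. The median distance stayed within -298 to -309.5 bp in the alternatives tried. TATAAA occurred in 5.88% of peaks within 50 bp and in 33.3% within 150 bp. In widths added after the data were seen, CCTAAA occurred in 13.7% within 50 bp and ACCGTA in 33.3%. No paired analysis was possible because both replicates belong to 1 group. The unknown depth limits what a missing replicate 1 region means.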
